A study of Rattus norvegicus with 4 samples.

Results

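The genes described here are 38 genes of Kupffer cells, the resident macrophages of the liver, and of leukocytes in general, measured in preparations of rat hepatic stellate cells. They were found by the gene names in the scanner files, with older synonyms accepted. A probe of that name was present for 36 of the 38, and all 36 were well above background in at least 1 dye channel on at least 2 arrays. Fcer1g and Cd53 were not analysed here. Gpnmb and Lgals3 lacked a usable spot on 1 array each, so 34 members were tested, among 25498 genes in all.

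The series examined hepatic stellate cells, which store vitamin A beside the sinusoid, and endoglin, a membrane protein that assists TGF-beta receptors. It held 4 whole-genome oligonucleotide arrays on 1 slide. On each array RNA labelled with Cy5 came from untreated cells or from cells transfected with an siRNA against endoglin, and RNA labelled with Cy3 came from cells transfected with a control siRNA. Each group had 2 arrays, 1 with cells of 1 animal and 1 with cells of 3 animals. The control cells of every array therefore had undergone transfection, whereas the untreated cells had not. Dyes were not swapped, so a gene's dye effect cannot be told apart from a difference to control siRNA cells. Strain, age, days in culture, the isolation of the cells and the siRNA sequences were not stated in the labels. The labels do not say whether the single animal was among the 3, or whether arrays shared a control RNA. With 2 arrays in a group, the p-values measure only the spread between these arrays.

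Kupffer cells line the liver sinusoid beside the stellate cells and clear particles, immune complexes and dying cells. They do so with scavenger receptors, Fc receptors and complement C1q, they digest what they take up in lysosomes, and they present peptides on MHC class II molecules. Their identity is set by the transcription factor encoded by Spi1 and by signals through the receptor encoded by Csf1r. Stellate cells are not of haematopoietic origin, and the pan-leukocyte antigen encoded by Ptprc is therefore not among their markers.

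The arrays measured the cell type named in the labels as well as the members. Of 16 stellate cell markers, all were tested and 15 were well above background in both channels of every array. The members were well above background in Cy5 for 34 of 34 on 3 arrays and for 26 of 34 on the array of endoglin siRNA cells pooled from 3 animals. In Cy3 these numbers were 33 of 34 on 3 arrays and 25 of 34 on that pooled array. In cells given the endoglin siRNA, endoglin mRNA (Eng) had a log2 ratio of -2.40 ± 0.26 (SE, n = 2 arrays) to control siRNA cells. The limma adjusted p was 0.0051, and the arrays were at -3.08 with 1 animal and -1.72 in the pool. Every SE given here is limma's moderated SE, which pools the spread within both groups and leans on that of all genes. It is therefore not the spread of the 2 arrays of a group. Both pooled arrays held 6 spots with a local background above 1000 intensity units, which entered the fit of the background correction. Where it matters, values are therefore also given with the background fitted without these spots, and this setting moved only the pooled arrays.

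The first comparison asks how untreated cells differed from cells that had gone through transfection with the control siRNA. Members were higher in untreated cells. All 34 members had a positive mean log2 ratio, from 0.07 for Cyba to 1.77 for Msr2, with a median of 0.75, while the median over all genes was 0.00. After Benjamini-Hochberg adjustment over all genes in limma, 16 of 34 members passed as higher and 0 as lower. Unadjusted limma p-values were under 0.05 for 30 members and for 3479 of the 25498 genes. Of all genes tested, 0.435% passed as higher and 0.275% as lower (0.71% in either direction). A total of 33 of 34 members were above 0 on both untreated arrays, against 29.7% of all genes. Positive values mean higher in untreated cells, as the dyes in the labels give it. The deposited value table has the opposite sign for both untreated arrays. In these bulk samples, fewer cells of a type and less RNA per cell cannot be told apart.

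**Figure D1:**
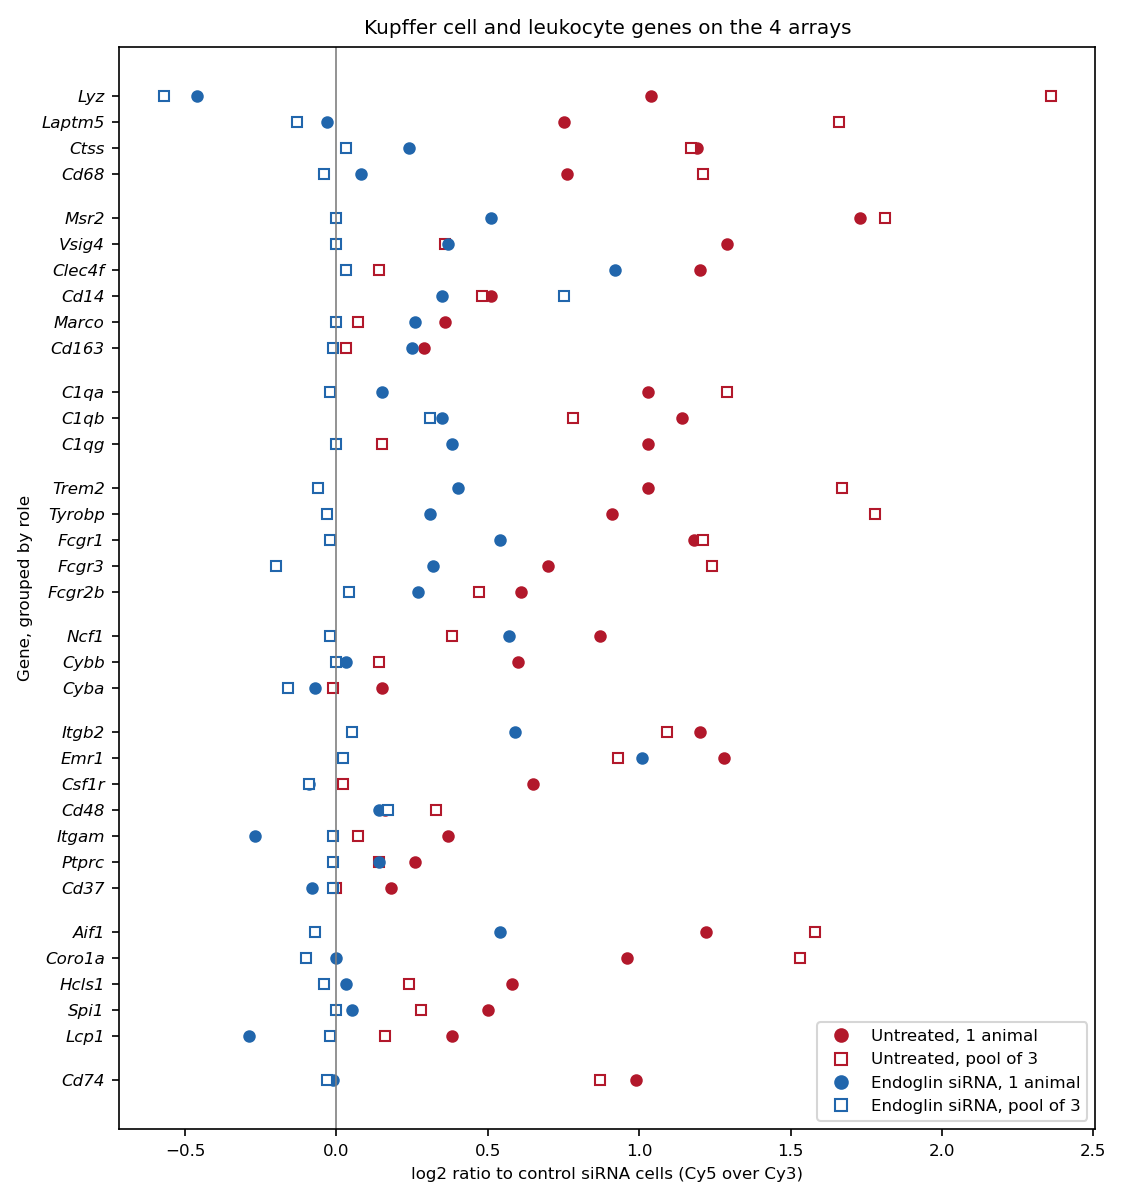
Log2 ratio to control siRNA cells (x axis) of each of the 34 tested members (rows, grouped by role) on each of the 4 arrays; circles are arrays of 1 animal, squares are arrays of a pool of 3, red is untreated and blue is endoglin siRNA. The red symbols lie at or to the right of 0 in all rows but that of Cyba, and both red symbols lie to the right of both blue symbols in 25 of 34 rows.

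The 3 largest means were those of Msr2, Lyz and Aif1, which belong to different roles. Lyz, which encodes the bacteriolytic enzyme lysozyme (Lyz2 in RefSeq), had log2 ratios of 1.04 with 1 animal and 2.36 in the pool. Its mean was 1.70 ± 0.25 (moderated SE, n = 2), a 3.25-fold higher level with a limma adjusted p of 0.0392. The pool thus lay well above the single animal. Laptm5, a lysosomal membrane protein of haematopoietic cells, had ratios of 0.75 and 1.66. Cd68, a glycoprotein of macrophage lysosomes, had ratios of 0.76 and 1.21. In both genes the pool was again the higher array. Ctss, the lysosomal protease cathepsin S that trims the invariant chain, had ratios of 1.19 and 1.17, which were nearly equal on the 2 arrays. With the background fitted without the disturbed spots, its pooled ratio was 1.56. All 4 tested genes of this group passed, with means of 0.99 to 1.70. Gpnmb, a transmembrane glycoprotein of lysosomes and phagosomes, had untreated ratios of 0.74 and 0.63 and was not tested because its spot was excluded as an outlier on the endoglin siRNA array of 1 animal. Lgals3, which encodes galectin-3, had ratios of 0.83 and 0.76 and was not tested for the same reason in the endoglin siRNA pool. When outlier spots were kept, a setting chosen after seeing the data, both of these genes passed as higher.

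Among pattern recognition and scavenger receptors, 1 of 6 passed. This was Msr2, which encodes a scavenger receptor-like molecule and is named Fcrl2 in RefSeq. Its ratios were 1.73 with 1 animal and 1.81 in the pool, a mean of 1.77 ± 0.11 (SE, n = 2), which is 3.40-fold higher with a limma adjusted p of 0.0059. Vsig4, a complement receptor of resident macrophages, had ratios of 1.29 and 0.36. Clec4f, a galactose-binding lectin specific to Kupffer cells, had ratios of 1.20 and 0.14. For both receptors the single animal was far above the pool, and neither passed (adjusted p = 0.1179 and 0.3252). Vsig4 was at 1.07 in the pool and passed (limma adjusted p = 0.0046) with the background fitted without the disturbed spots. Cd14, the co-receptor for bacterial lipopolysaccharide, had ratios of 0.51 and 0.48 (adjusted p = 0.0704). Marco and Cd163, receptors for bacteria and for haemoglobin complexes, had means of 0.21 and 0.16. Both were dim, with Marco well above background in Cy3 on 1 array and Cd163 on 2.

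The 3 chains of complement C1q, the molecule that starts the classical pathway and that macrophages secrete, all had positive ratios on both arrays. C1qa had ratios of 1.03 with 1 animal and 1.29 in the pool. C1qb had ratios of 1.14 and 0.78. C1qg, the C chain (C1qc in RefSeq), had ratios of 1.03 and 0.15. The single animal gave about the same ratio for the 3 chains, and the pooled array did not. C1qg was dim on the untreated pool, with log2 levels of 7.83 in Cy5 and 7.67 in Cy3. Its pooled ratio was 0.51 without the disturbed spots and 1.06 by the log ratios of the scanner software. Under these 2 settings C1qb was at 0.96 and 0.97 in the pool, and C1qa at 1.80 and 2.13. C1qa (mean 1.16 ± 0.08 SE, limma adjusted p = 0.0065, n = 2) and C1qb (0.96) passed. A second C1qa probe gave 1.14 and 1.26, close to the first, whereas a second C1qg probe gave 0.24 and 0.07.

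All 5 tested genes of Fc receptors and their partners passed. Tyrobp, a signalling adaptor of myeloid receptors, had ratios of 0.91 with 1 animal and 1.78 in the pool. Trem2, a lipid-sensing receptor that signals through that adaptor, had ratios of 1.03 and 1.67. The receptor and its adaptor had near-equal means (1.35 and 1.34), about 2.55-fold and 2.54-fold higher. Fcgr1 (Fcgr1a in RefSeq), the high-affinity receptor for IgG, had ratios of 1.18 and 1.21. Fcgr3, an activating low-affinity IgG receptor, had ratios of 0.70 and 1.24. Fcgr2b, the inhibitory IgG receptor, had ratios of 0.61 and 0.47. The inhibitory receptor had the smallest mean of the group, 0.54 (limma adjusted p = 0.0366), and the activating receptors had means of 0.97 (Fcgr3) and 1.20 (Fcgr1). Probes of these genes did not all give the same size. Other probes gave means of 0.19 for Tyrobp, 0.37 for Fcgr1, and 0.39 and 0.49 for Fcgr3. Fcgr2b and Fcgr3 are closely related genes, and the labels do not say how specific their probes are. Fcgr3 was at 1.08 with the background fitted without the disturbed spots and no longer passed, its adjusted p lying at the threshold.

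None of the 3 genes of the phagocyte NADPH oxidase, which makes superoxide in phagosomes, passed in limma, and their means ran from 0.07 to 0.62. The cytosolic subunit gene Ncf1 had ratios of 0.87 with 1 animal and 0.38 in the pool. The catalytic subunit gene Cybb had ratios of 0.60 and 0.14. Cyba, its membrane partner, which many cell types express, had ratios of 0.15 and -0.01. Cyba had the mean nearest to 0 of all tested members, and it was the 1 member not above 0 on both arrays.

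Of the 7 tested surface receptor genes, 1 passed. Itgb2, the shared beta chain of the leukocyte integrins, had ratios of 1.20 with 1 animal and 1.09 in the pool (mean 1.15 ± 0.12 SE, limma adjusted p = 0.0158). Emr1, the gene of a macrophage adhesion receptor (Adgre1 in RefSeq), had ratios of 1.28 and 0.93 and did not pass (adjusted p = 0.0657), the largest mean (1.11) among members that did not. Itgam, which encodes the alpha chain that pairs with Itgb2 in myeloid cells, had ratios of 0.37 and 0.07. Csf1r had ratios of 0.65 and 0.02. The pan-leukocyte gene Ptprc had ratios of 0.26 and 0.14. Cd37 and Cd48, surface proteins found on B and T lymphocytes as well, had means of 0.09 and 0.24. Apart from Itgb2 and Emr1, the surface receptor genes thus had means from 0.09 to 0.34. Ptprc, Itgam and Cd37 were dim, each well above background on 3 arrays, so the size of their ratios depended on the background correction. By the log ratios of the scanner software, Ptprc had 0.85 with 1 animal and 0.55 in the pool. Itgam had 0.83 and 0.59 by that measure, and Cd37 had 0.52 and 0.15.

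Coro1a and Aif1, actin-binding proteins of leukocytes and of activated macrophages, passed. Coro1a had ratios of 0.96 with 1 animal and 1.53 in the pool (mean 1.24 ± 0.12 SE, limma adjusted p = 0.0148). Aif1 had ratios of 1.22 and 1.58 (mean 1.40 ± 0.14 SE, limma adjusted p = 0.0158). Lcp1, Hcls1 and Spi1, an actin bundler, an adaptor of lymphocyte signalling and the transcription factor named above, had means of 0.27, 0.41 and 0.39 and did not pass. Cd74, the MHC class II invariant chain, had ratios of 0.99 and 0.87 and passed (mean 0.93 ± 0.06 SE, limma adjusted p = 0.0059).

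The 2 untreated arrays did not differ alike across the members. The median ratio was 0.81 with 1 animal and 0.48 in the pool. It was 1.01 in the pool with the background fitted without the disturbed spots, and 1.33 by the log ratios of the scanner software. The pool lay above the single animal for genes such as Lyz, Laptm5, Tyrobp, Trem2 and Coro1a, and below it for genes such as Vsig4, Clec4f, C1qg and Csf1r. Genes at least 2-fold higher on both untreated arrays numbered 11 in all (0.0431% of those tested), and 8 of them were members: Lyz, Msr2, Ctss, C1qa, Fcgr1, Trem2, Itgb2 and Aif1. The members had been chosen with earlier results of these data known. The number of members that passed was 24 (1.07% of all genes passed as higher) without the disturbed spots, with 15 of the 16 kept. Leaving out an untreated array leaves 1 in that group. The median member ratio was then 0.48 without the array of 1 animal and 0.81 without the pool. All calls, of members and of other genes alike, ended without the untreated pool. The number of members that passed was also 0 with median centring, with scaling between arrays and with the log ratios of the scanner software. Under these settings 0 genes of any kind passed in limma.

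Because the factor encoded by Spi1 is known to bind sites with a GAGGAA core in promoters of myeloid genes, these letters were searched on both strands of the 250 bases before the RefSeq gene start (assembly GRCr8). A promoter was listed for 26 of the 38 members. GAGGAA occurred in 17 of these 26 (65.4%) and in 23.3% of all 33469 listed promoters. The longer GAGGAAGT, which contains it, occurred in 3 of 26 (11.5%) and in 2.04% of all promoters. Among the 9 listed promoters of members that passed, 7 held GAGGAA. A match is a description of letters in this window. The sequences of 4 members that were higher in untreated cells, and of Cyba, the member nearest to 0, are shown 5′ to 3′ along the gene's strand, with GAGGAA or its reverse complement TTCCTC in capitals.
Lyz (Lyz2), chr7:54798012-54798261, minus strand: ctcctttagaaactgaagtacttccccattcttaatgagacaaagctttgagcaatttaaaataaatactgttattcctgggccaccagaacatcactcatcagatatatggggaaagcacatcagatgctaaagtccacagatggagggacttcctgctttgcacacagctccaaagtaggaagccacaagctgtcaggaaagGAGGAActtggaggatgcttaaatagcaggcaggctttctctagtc
Laptm5, chr5:148371630-148371879, plus strand: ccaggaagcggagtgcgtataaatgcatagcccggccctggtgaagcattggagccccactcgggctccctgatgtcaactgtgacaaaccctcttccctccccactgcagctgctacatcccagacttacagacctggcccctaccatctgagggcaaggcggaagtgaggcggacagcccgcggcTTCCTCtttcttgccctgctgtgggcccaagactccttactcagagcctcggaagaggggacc
Ctss, chr2:185775146-185775395, plus strand: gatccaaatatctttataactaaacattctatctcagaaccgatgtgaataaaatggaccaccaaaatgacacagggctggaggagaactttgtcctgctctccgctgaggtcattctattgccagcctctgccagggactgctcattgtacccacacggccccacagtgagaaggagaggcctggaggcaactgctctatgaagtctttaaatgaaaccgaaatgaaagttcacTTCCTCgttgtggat
Trem2, chr9:20151780-20152029, minus strand: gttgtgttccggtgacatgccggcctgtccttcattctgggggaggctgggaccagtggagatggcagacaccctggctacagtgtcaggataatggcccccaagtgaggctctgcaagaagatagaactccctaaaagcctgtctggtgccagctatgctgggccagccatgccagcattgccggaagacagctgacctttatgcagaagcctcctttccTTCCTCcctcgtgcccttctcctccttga
Cyba, chr19:67404215-67404464, minus strand: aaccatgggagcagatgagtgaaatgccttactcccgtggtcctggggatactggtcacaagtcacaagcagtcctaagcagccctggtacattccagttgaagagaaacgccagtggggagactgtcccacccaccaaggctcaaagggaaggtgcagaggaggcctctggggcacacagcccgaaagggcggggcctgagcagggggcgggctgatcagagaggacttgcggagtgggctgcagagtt

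The Lyz, Laptm5, Ctss and Trem2 windows each hold 1 match, which in Ctss lies within the longer motif, and the Cyba window holds 0. Vsig4, Clec4f, C1qa, Ncf1, Cd163, Cd48, Coro1a and Hcls1 also had 0 matches, so members with and without these letters were both among those that passed.

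Marker lists of other cells were read beside the members. Both were chosen with earlier results of these data known, so their medians are a description. Of 73 other macrophage and myeloid genes, 61 were tested, 6 were higher and 0 lower in untreated cells, with a median of 0.18. Among them were Spp1 (1.18, limma adjusted p = 0.0139), which encodes osteopontin, the macrophage elastase Mmp12 (1.05, 0.0397) and the phosphatase Ptpn6 (0.97, 0.0148). The lowest means of that list, of Acp5 (-0.46, adjusted p = 0.0642) and Hmox1 (-0.36, 0.2384), did not pass. Of 5 tested MHC class II genes, RT1-Da (0.96, limma adjusted p = 0.0174) and RT1-Db1 (0.67, 0.0393) passed, the class whose invariant chain is Cd74. Markers of T and NK cells (8 tested), B cells (1), neutrophils (2), dendritic cells (1), sinusoidal endothelium (10) and hepatocytes (8) gave 0 calls, with medians from -0.07 to 0.26. Of 3 tested cholangiocyte markers 1 passed, Spp1, which the myeloid list holds too. Of 16 stellate cell markers, 4 were higher and 0 lower, with a median of 0.32, among them Col3a1 (1.06, limma adjusted p = 0.0344), Cygb (1.00, 0.0149) and Vim (0.41, 0.0416). In the opposite direction Des, which encodes desmin, had a mean of -0.76 (adjusted p = 0.0511) and Col1a1 of -0.19, and neither passed. The summed level of the stellate list was 695601 and 720510 in untreated cells and 679008 and 597794 in endoglin siRNA cells. It was 423671 to 502247 in control siRNA cells. Every Cy5 sum of that list lay above every Cy3 sum, and a dye effect cannot be told apart from a difference of the cells. The sum for the other myeloid genes was 185780 and 97159 in untreated cells, 138814 and 85319 in endoglin siRNA cells and 89833 to 152805 in control siRNA cells. The part of either in the members' ratios was not tested.

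**Figure D2:**
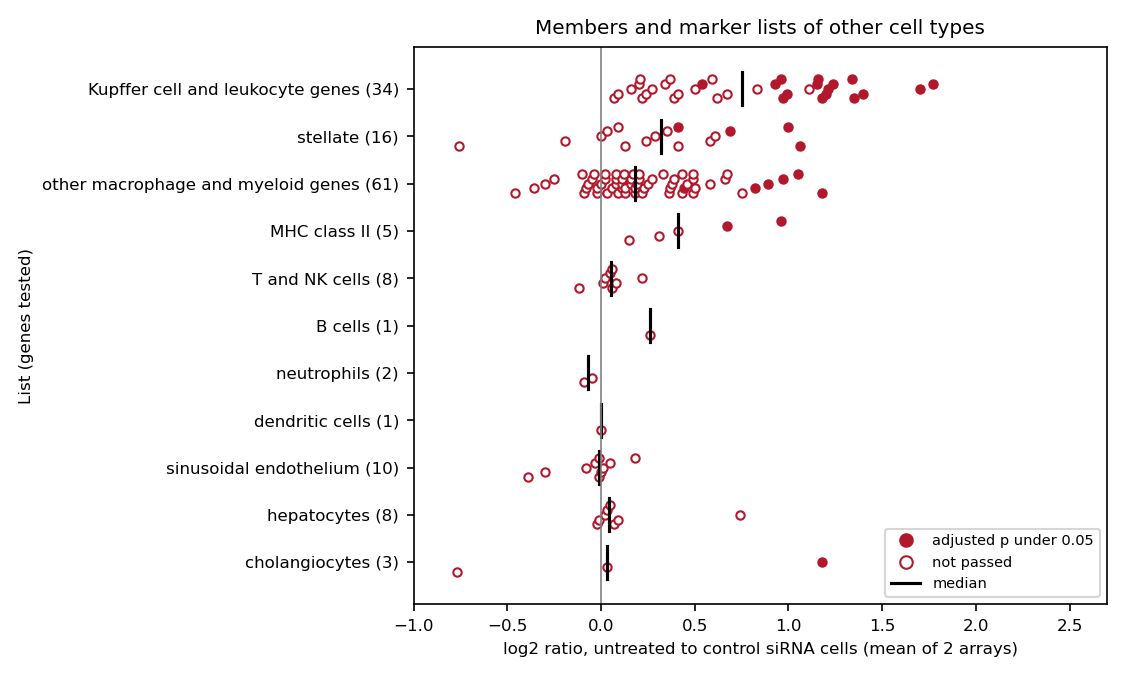
Log2 ratio of untreated to control siRNA cells (x axis, mean of 2 arrays) for the members and for marker lists of other cells (rows, with the number of genes tested); each point is a gene, filled where the limma adjusted p was under 0.05, and the bar is the median. The members have the largest median, 0.75, and the T and NK cell, endothelial and hepatocyte lists have medians from -0.01 to 0.05. Members and lists were chosen with earlier results of these data known.

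The second comparison asks what the endoglin siRNA did relative to the control siRNA, both transfected. Members had ratios near 0. The median was 0.12 against 0.02 over all genes, and 1 of 34 members passed in limma, higher, and 0 lower. Unadjusted limma p-values were under 0.05 for 4 members and for 5885 of the 25498 genes, so the members' share was not above that of all genes. Of all genes, 5.26% passed as higher and 2.87% as lower (8.13% in all), and the share of members that passed, 2.94%, was not above that of all genes.

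The member that passed was Cd14, with log2 ratios of 0.35 with 1 animal and 0.75 in the pool (mean 0.55 ± 0.09 SE, n = 2, 1.46-fold, limma adjusted p = 0.0178). Both endoglin siRNA arrays were above 0, as were both untreated arrays, and a dye effect cannot be told apart from a difference to control siRNA cells. A second Cd14 probe gave 0.29 and 0.27, which is smaller. The call ended with median centring (ratio 1.59), with scaling between arrays (1.33) and with the log ratios of the scanner software (0.51), settings under which 0 genes of any kind passed in limma in this comparison. The largest positive means that did not pass were those of Emr1 (0.52, with 1.01 for 1 animal and 0.02 in the pool, adjusted p = 0.1818) and Clec4f (0.47, with 0.92 and 0.03). In the opposite direction lay Lyz, with ratios of -0.46 and -0.57 (mean -0.52 ± 0.25 SE, adjusted p = 0.2839), and Lcp1, with -0.29 and -0.02. Lyz was the lowest member on both arrays, and its pooled ratio was -0.99 with the background fitted without the disturbed spots. Under that setting 2 members passed as higher (Cd14 and C1qb, 8.94% of all genes) and 1 as lower (Lcp1, 7.33%).

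The arrays of the 2 RNA sources differed. With 1 animal 26 of 34 members were above 0, with a median of 0.25, and in the pool 12 of 34 were, with a median of -0.01. A positive ratio with 1 animal and a negative one in the pool was found for 14 of 34 members, 12 of them within 0.1 of 0 in the pool, against 12.8% of all genes. In the pool 26 members lay within 0.1 of 0 (10 without the disturbed spots). With the single-animal array alone for endoglin siRNA, assumed to vary like the untreated arrays, the members that passed as higher numbered 6, namely Cd14, Msr2, Fcgr1, Itgb2, Emr1 and Aif1, while 10.5% of all genes passed in either direction.

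The third comparison sets endoglin siRNA cells against untreated cells, which met through the control siRNA channel of their arrays and therefore share it with the comparisons above. Members were lower with the endoglin siRNA. In limma 4 of 34 passed as lower and 0 as higher, with a median difference of -0.51 on the log2 scale (0.02 over all genes). Unadjusted limma p-values were under 0.05 for 21 members and for 2099 of the 25498 genes. Of all genes, 0.0588% passed as lower and 0.0431% as higher (0.102% in all). Both untreated arrays lay above both endoglin siRNA arrays for 25 of 34 members, against 11.6% of all genes. Within the same RNA source, 34 of 34 members were lower with 1 animal and 33 of 34 in the pool, Cd14 being the exception. The share of all genes with this pattern was not counted, so these numbers only describe the members. Some pooled differences were close to 0, such as -0.01 for Cd37 and -0.04 for Cd163. Only 26 of 34 members were well above background in Cy5 on the endoglin siRNA pool.

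The members that passed were Msr2, C1qa, Ctss and Cd74, which stand for a scavenger receptor, a C1q chain, a lysosomal protease and antigen presentation. Msr2 differed by -1.22 with 1 animal and by -1.80 in the pool (mean -1.51 ± 0.16 SE, limma adjusted p = 0.0377). For C1qa the differences were -0.88 and -1.31 (mean -1.09 ± 0.12 SE, limma adjusted p = 0.0383). For Ctss they were -0.94 and -1.13 (mean -1.04 ± 0.10 SE, limma adjusted p = 0.0260). In all 3 genes the pool gave the larger difference. Cd74 had differences nearly equal in both sources (mean -0.95 ± 0.09 SE, limma adjusted p = 0.0256), and its ratio to control siRNA cells was -0.01 and -0.03 on the endoglin siRNA arrays.

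The largest difference did not pass. Lyz differed by -1.50 with 1 animal and -2.93 in the pool (mean -2.22 ± 0.36 SE, 4.65-fold, limma adjusted p = 0.1279). Laptm5 and Coro1a followed, below Msr2, each with a mean of -1.29 (adjusted p = 0.1887 and 0.0741). These were members whose arrays lay further apart than those of Ctss or Cd74. At the other end stood Cd14, with -0.17 and 0.26, the only positive mean, 0.05. Clec4f, Marco, Cd163 and Cd48 had means of -0.19, -0.08, -0.04 and -0.09. With the background fitted without the disturbed spots, 9 members passed as lower (0.561% of all genes): the 4 above and Lyz, Vsig4, C1qb, Lcp1 and Hcls1. The 4 calls ended without either untreated array, and with median centring, scaling between arrays or the log ratios of the scanner software.

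**Figure D3:**
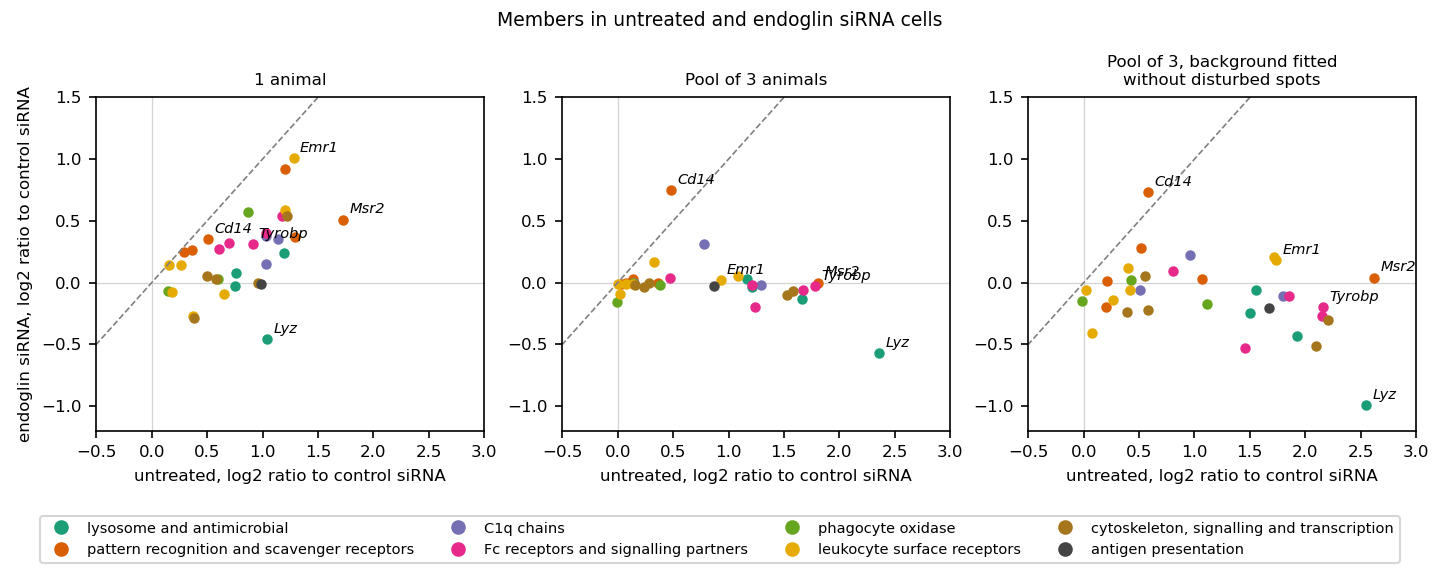
Log2 ratio to control siRNA cells of each tested member in untreated cells (x axis) and endoglin siRNA cells (y axis), for 1 animal, for the pool of 3, and for the pool with the background fitted without the disturbed spots; colours are roles and the dashed line marks equal ratios. With 1 animal 34 of 34 members lie below the line, and in the pool 33 of 34 do, Cd14 lying above it.

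The control siRNA channel itself showed how much of these RNAs each preparation held. Levels are normalized log2 intensities of 1 probe compared between arrays, not between genes. In Cy3 the members were higher with 1 animal than in the pool for 30 of 34, with a median log2 difference of 1.44 (2.72-fold) against 0.02 over all genes. The difference was at least 2-fold for 18 of 34 members, 52.9%, and for 1.81% of all genes. With each channel centred on its median gene instead, it was at least 2-fold for 22 of 34 members and 24.8% of all genes, and for 20 members and 3.4% of all genes when the disturbed spots were also left out. The Cy3 levels were not tested, since the single animal and the pool are 1 RNA source each in the labels.

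Lysosomal and Fc receptor genes led. The Cy3 level of Laptm5 was 13.09 and 13.08 on the 2 arrays of 1 animal and 10.13 and 9.65 on the 2 pooled arrays, a 9.12-fold difference. For Tyrobp these levels were 12.55 and 12.47 against 9.64 and 9.21, an 8.49-fold difference. Trem2 was at 12.11 and 12.07 against 9.23 and 8.87, an 8.25-fold difference. In the 3 genes the 2 sources did not overlap, and the 2 arrays of a source lay close to each other. Lyz was 6.66-fold, Cd68 7.39-fold and Fcgr2b 9.06-fold higher with 1 animal. Cyba was about equal (1.00-fold), and Ptprc (0.989-fold), Marco (0.931-fold), C1qb (0.920-fold) and Spi1 (0.821-fold) were not higher. Ptprc and Marco were dim, and neither was well above background in Cy3 on the endoglin siRNA pool. The other C1q chains were higher with 1 animal, C1qa 5.25-fold and C1qg 1.24-fold, so the chains of 1 molecule differed among themselves. Each of these values rests on 1 probe a gene, and the cause of the differences was not tested.

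**Figure D4:**
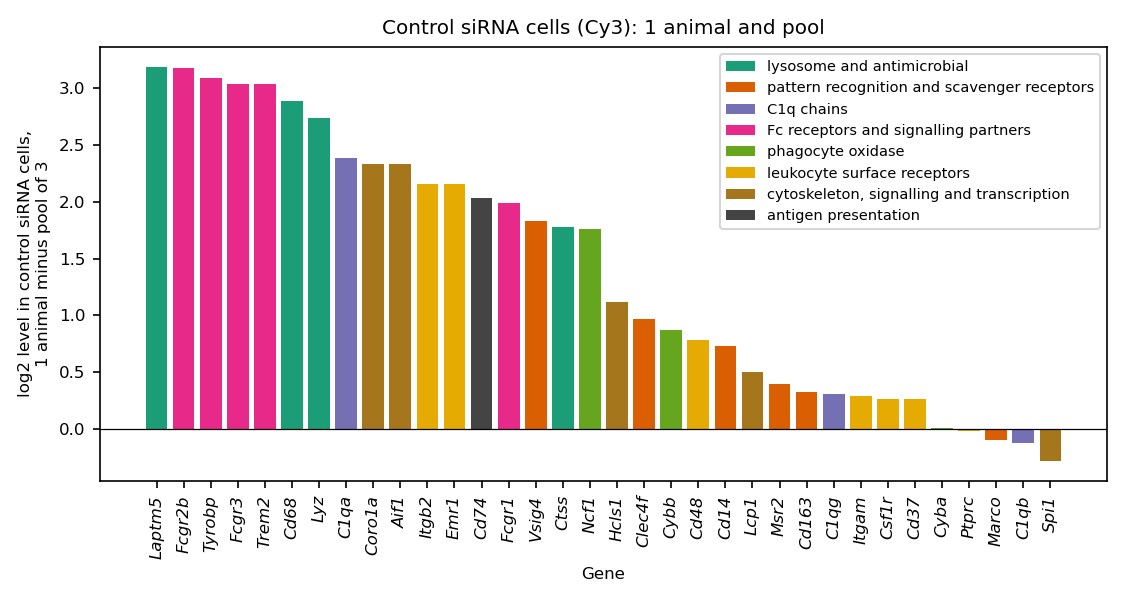
Difference in log2 level in control siRNA cells (Cy3), 1 animal minus pool of 3 (y axis, mean of 2 arrays each), for each of the 34 tested members (x axis), coloured by role. The bars reach above 3 for Laptm5, Fcgr2b, Tyrobp, Fcgr3 and Trem2, and 30 of 34 lie above 0.

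The channels also bear on the direction of the untreated arrays. Over the members, the Cy3 levels of the untreated and the endoglin siRNA array of 1 animal differed by a median of 0.05 on the log2 scale, and those of the pooled arrays by 0.18. The Cy5 levels of the same array pairs differed by 0.59 and 0.77. Over all genes the contrast was smaller, with 0.08 and 0.12 in Cy3 and 0.12 and 0.17 in Cy5. For the members, Cy3 thus held the RNA that was more alike on the 2 arrays of a source, which is where the labels place the control siRNA cells. For C1qa, Msr2 and Fcgr3 the levels of the 2 arrays of 1 animal moved together in both channels, as for C1qa in Cy3 (11.71 and 10.50). For these genes ratios within an array are therefore the values to read. Fcgr1 had Cy3 levels of 10.09 on the untreated and 10.84 on the endoglin siRNA array of 1 animal, with Cy5 at 11.27 and 11.38. Its smaller ratio on the latter array (0.54 against 1.18) thus went with a higher control level.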

How the data were processed

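Per the labels, an RNeasy kit gave the RNA and an Agilent kit for low RNA input amplified it with dye. Agilent Feature Extraction, version 9.5.1.1 in the file headers, was the authors' image software, and the labels add Rosetta Resolver. Per the file headers, the deposited mean and background signals are linear intensity values, and the software's own ratios are Cy5 over Cy3 on a log10 scale. The authors' value table holds the same log10 ratios, with the sign turned on both untreated arrays.

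Here mean signals were corrected with limma's normexp (offset 50), normalized to log2 ratios by loess within each array and averaged per probe, without control spots and spots flagged as outliers. Each array had 45018 spots, and 0 probes were saturated. Gene spots well above background made up 93.3% in Cy5 and 87.2% in Cy3 on the untreated pool, and 61.9% to 70.2% on the other arrays. Probes well above background in 1 channel or more on 2 or more arrays were kept, and the brightest probe stood for a gene. Names followed RefSeq where an accession (6595 genes), symbol (3229) or synonym (3016) matched, and otherwise (12658) the array file. Group means over all 4 arrays were fitted in limma 3.58.1 under R 4.3.3 (2 residual and 5.27 prior degrees of freedom), with Benjamini-Hochberg adjustment over 25498 genes at 0.05. Control RNA was never the Cy5 sample, so dye effects of single genes stay within the ratios to it and were not tested. If arrays shared a control RNA, which the labels do not say, p-values leave out its own spread. This fit was also run on data simulated for the comparison of endoglin with control siRNA. It recovered 98% of 100 planted log2 changes of 1 and 100% of 100 of 2, and 5.26% of all calls were false. The simulated noise was independent and drawn from the fit's own variance prior, without dye, array or source effects. Recovery under such effects, and in the other comparisons, was not tested. Alternatives were other background corrections, normalizations, filters and probe rules, the deposited table, each array left out, and the RNA source as a block.

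The members and lists were chosen with earlier results of these data known. Members that passed are given with their array values, and of those that did not the largest 2 in each direction. Other members named under their role, and list genes that did not pass, were chosen after their values were seen. Some list genes that passed are counted but not reported here by name.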

Additional observations from a re-analysis of the deposited data

Results flagged for a closer look

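Under the endoglin siRNA the RNA sources differed in sign for some members, and this difference was not tested, since each source had 1 array. Fcgr3, an activating IgG receptor, had a log2 ratio to control siRNA cells of 0.32 with 1 animal and of -0.20 in the pool of 3. In all, 14 of 34 members were positive with 1 animal and negative in the pool. Of all genes 12.8% were. In the pool 12 of the 14 lay within 0.1 of 0, and 4 were not well above background there in either channel, so most of these signs rest on values near 0.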

How the results depend on the processing

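In all 34 members the untreated to control siRNA ratio kept its positive sign under the alternatives run, except without untreated replicate 1 (33 of 34). No member that passed changed sign in any comparison. The median of that ratio, 0.75 in the main fit, was 1.08 without background correction and 1.02 without the disturbed spots. It was 1.17 with the scanner software's log ratios or the deposited table, and 1.00 with median centring. Smaller medians came with scaling between arrays (0.53) and with the mean of all kept probes (0.65). With each array left out the median ranged from 0.48 to 0.81. The members that passed then changed, and each such fit leaves 1 array in a group. The count of higher members was 0 with the scanner software's log ratios, the deposited table, median centring and scaling. Under each of these 4 settings 0 members also passed in the other comparisons. For untreated against control siRNA cells, unadjusted p under 0.05 then held for 29, 29, 16 and 20 members in limma. It held for 3329, 3330, 73 and 579 of the 25498 genes.

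For endoglin against control siRNA, median centring gave a median of 0.56 (0.32 over all genes, a shift that loess removes). Higher members numbered 2 (8.94% of all genes) and lower members 1 (7.33%) without the disturbed spots. Without background correction lower members numbered 1, while 17.7% of all genes passed in either direction. With outlier spots kept higher members numbered 3, while 8.11% of all genes passed in either direction. With each array left out, the median ranged from -0.01 to 0.25, and the members that passed depended on the array left out.

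For endoglin siRNA against untreated, the median was -0.51 in the main fit, -0.88 without background correction and -0.78 without the disturbed spots. It was -1.24 with the scanner software's log ratios or the deposited table. Nearer to 0, it was -0.40 with median centring, -0.37 with scaling and -0.47 with the mean of all kept probes. With each array left out it ranged from -0.74 to -0.32. Lower members numbered 9 without the disturbed spots and 0 to 7 with each array left out.

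With the RNA source as a replicate block, 25 members were higher in untreated than in control siRNA cells, 6 were higher with endoglin than with control siRNA, and 13 were lower with endoglin siRNA than untreated. Of all genes 4.05%, 15.5% and 1.05% then passed in either direction, so the 6 members lay near the share of all genes. The labels do not say that the arrays of a source share animals, and deviations from the group means correlated across genes at 0.29. The Cy3 level of members with 1 animal exceeded the pool by a median of 1.95 when each channel was centred on its median gene, with or without the disturbed spots, an alternative chosen after seeing the data, as was keeping outlier spots. The causes of these differences were not tested. Dim probes limit precision on the endoglin siRNA pool.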
